A study of Homo sapiens with 6 samples.

Results

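The genes of the cytosolic ribosomal proteins were examined in a human B-lymphoblastoid cell line before and after freeze-drying. Members were chosen by name alone: every symbol made of RPL or RPS, a number and, where present, one of the endings A, X, L, AL or L1, together with RPLP0, RPLP1, RPLP2 and RPSA. This gave 85 of the 23284 gene symbols in the tables, 53 for the large subunit and 32 for the small subunit. Among them, 8 were paralogs whose symbol ends in L or L1 and whose main gene was also measured.

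GM12873 is a line of B lymphocytes kept in culture after transformation with Epstein-Barr virus, so all samples share the genome of 1 line. In the 3 control samples, the cells were washed and lysed in TRIzol without drying. In the 3 lyophilized samples, the cells were freeze-dried in 0.1 M trehalose and lysed after 2 weeks at room temperature, so the sugar, the drying and the storage cannot be told apart. Poly(A) RNA was read as single-end sequences of 75 bases, each lyophilized sample is paired by the labels with the control of the same number, and the deposited values are FPKM (fragments per kilobase of transcript scaled to the mapped total).

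Each ribosome carries a single copy of nearly every protein described here, and the proteins of both subunits are therefore needed in about equal numbers. Their mRNAs are among the most abundant of any dividing cell. Most begin with a cytosine followed by an uninterrupted run of pyrimidines, the terminal oligopyrimidine (TOP) motif, through which growth signals acting on the mTOR kinase switch their translation on and off together. The family is also among the richest sources of processed pseudogenes in the human genome, copies of the spliced mRNA inserted elsewhere, so that short reads of these genes often have more than one possible origin.

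The first bases of the annotated transcripts show which members carry the TOP motif, and are given for abundant members and for pairs of a main gene and its paralog. The sequences were read from GRCh37, the build of the tables, at the starts of the MANE Select transcripts of GENCODE, 1 representative transcript a gene. Each holds 5 bases before the annotated first base and 20 from it on, with a first C and the pyrimidines that follow it without a break in capitals.
RPLP1 (chr15:69745152-69745176, plus strand): gagagCCCCTTTCCTCagctgccgc
RPS6 (chr9:19380215-19380239, minus strand): tggccCTCTTTTCCgtggcgcctcg
RPL39 (chrX:118925574-118925598, minus strand): agcttCCCTCCTCTTCCTTTCTCCg
RPL39L (chr3:186857265-186857289, minus strand): aaatcgcggtcttagcatccggcgc
RPS27 (chr1:153963233-153963257, plus strand): tcgctCCTTTCCggcggtgacgacc
RPS27L (chr15:63449657-63449681, minus strand): cgagcgcagatcgcttgcagcttgc
RPL26 (chr17:8286492-8286516, minus strand): tagttCTCTTCCCTTTTgcggccat
RPL26L1 (chr5:172386422-172386446, plus strand): aactcacttccggccctgcgcactc
RPL36A (chrX:100645994-100646018, plus strand): ggtttCTTTCTTTCCgcgccgatag
RPL36AL (chr14:50087325-50087349, minus strand): cctttCCTgttaggcgagagctgcg
RPL22 (chr1:6259636-6259660, minus strand): acctcCCTTTCTaactccgctgccg
RPL22L1 (chr3:170587965-170587989, minus strand): gcttcCTCTCTgctctcgcggccga

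Counting a motif where the first base was C and it opened a run of at least 5 pyrimidines, read on the transcribed strand, 59 of the 85 members (69.4%) had it, against 891 of 18922 MANE Select transcripts (4.71%). It was present in 35 of the 53 large subunit genes and in 24 of the 32 small subunit genes. Of the main genes 58 of 77 had it, and of the paralogs 1 of 8, RPL22L1. RPL39 held the longest run of the family, 19 bases, whereas its paralog RPL39L began with G and had none. The annotated first base can lie a few bases from the one a cell uses: of the 26 members without the motif at the first base, 18 held such a run somewhere in the 25 bases, against 29.7% of the other MANE Select transcripts without it.

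The summed FPKM of the 85 members made up 25.7, 20.2 and 20.2% of all FPKM in the controls of pairs 1 to 3, and 26.1, 22.1 and 21.4% in their lyophilized partners. The difference was 0.414, 1.87 and 1.16 percentage points in pairs 1 to 3, or 1.15 ± 0.73 (SD, n = 3 pairs), against an SD of 3.18 points among the controls. With small RNAs set aside, 5, 13, 34 and 56 of the 10, 20, 50 and 100 genes with the highest mean FPKM were members. The median of the 46 large subunit main genes was 1154 FPKM and that of the 31 small subunit main genes 1380 FPKM. FPKM is a level per length of transcript, so these levels can be set beside each other, within the limits of reads that could not be placed. The levels ranged from 22.0 FPKM for RPL21 to 5817 FPKM for RPL37A in the large subunit, and those of the small subunit started at 52.8 FPKM for RPS26.

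All 10 B-lymphoblastoid markers were above 1 FPKM, with a sum of 3254 to 4763 FPKM, while markers of T cells, monocytes, erythroid cells and fibroblasts stayed below 1 FPKM and NKG7 of the NK list and KRT18 of the epithelial list passed it. The tables hold no read counts, but the commonest ratio between low values of the same record gives what 1 read was worth, and on this scale lyophilized samples 1 to 3 were 1.90, 1.33 and 0.923 times as deep as their controls. No interval for counting error was computed, and in bulk RNA fewer cells of a kind and less RNA per cell cannot be told apart. Pair 1 stood apart: 77 of the 83 members tested were highest in control 1 among the controls, and 77 were highest in lyophilized sample 1 among the lyophilized samples, against 29.3 and 29.1% of all genes. The median member lay 0.44 above the mean of the other two controls on the log2 scale in control 1, and 0.34 above the other two in lyophilized sample 1.

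**Figure D1:**
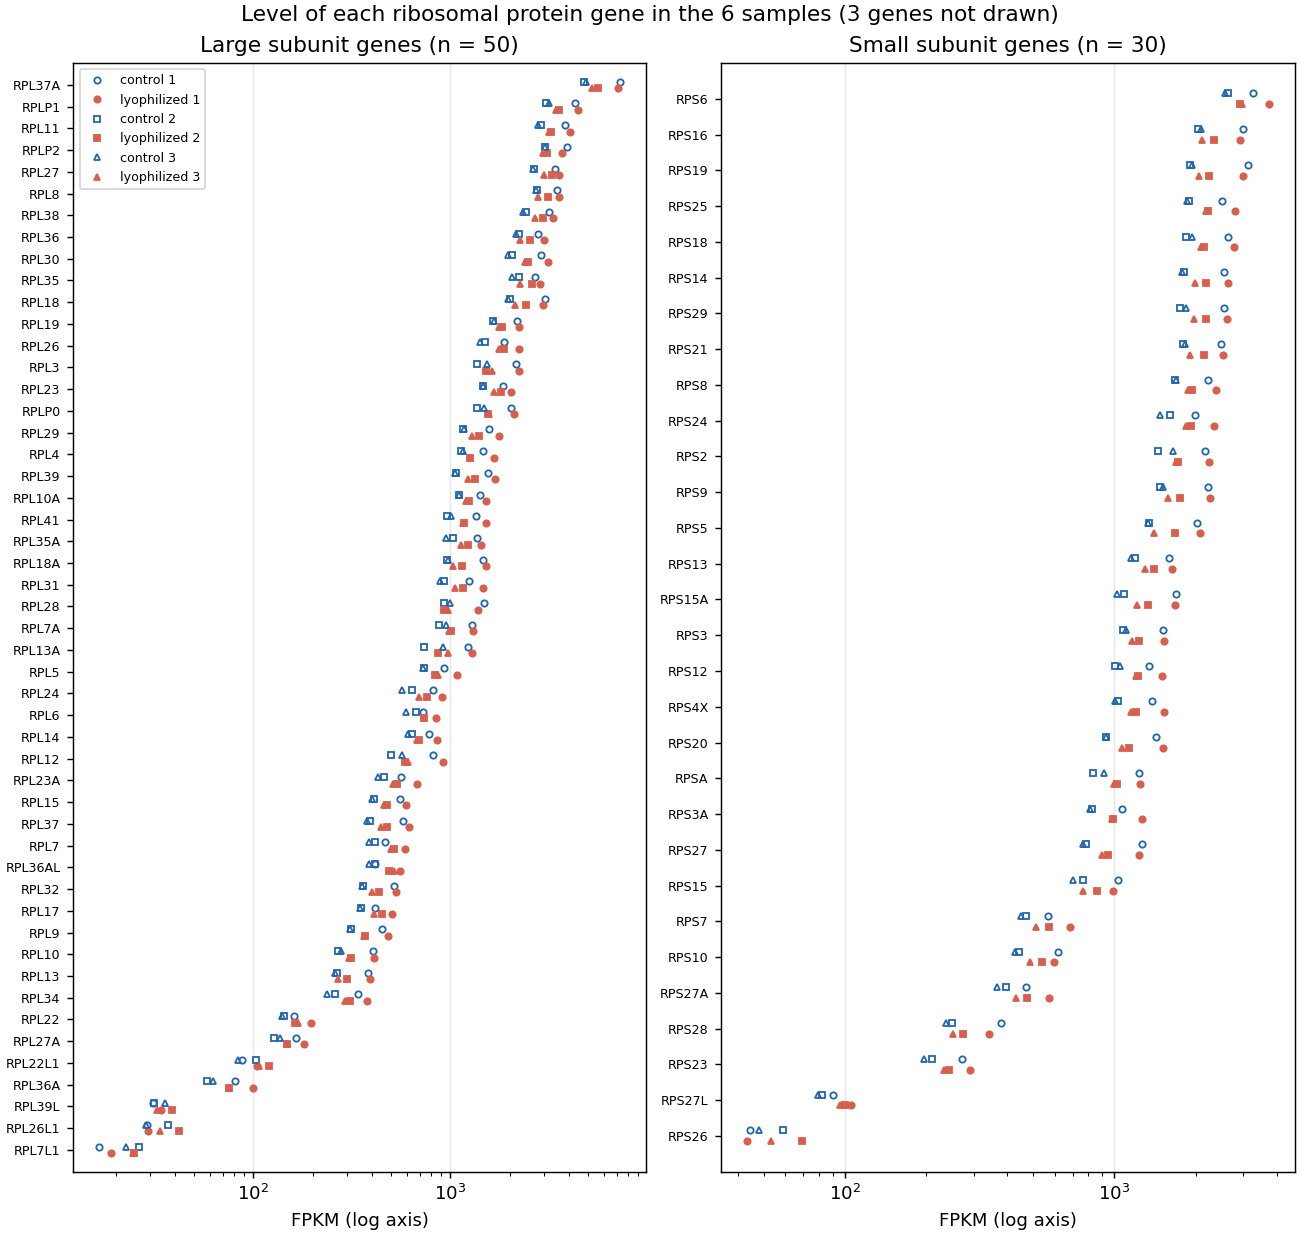
FPKM (log axis) of each member with a mean above 1 FPKM in the 3 control (open blue) and 3 lyophilized (filled red) samples, with the shape of the symbol giving the pair; 3 genes, RPL21 among them, are not drawn. The samples of pair 1 (circles) lie to the right for nearly all genes, with RPS26 and several paralogs as exceptions. The median log2 excess of control 1 over the other controls is 0.44.

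For the comparison of lyophilized with control samples, 83 members passed the filter of a mean above 1 FPKM in at least one group. Small differences ran almost entirely in one direction: the log2 fold change was above 0 for 81 of the 83 members, against 56.3% of the 11134 genes tested. Its median was 0.15 over the members and 0.04 over all genes. Within pairs, 66 of 83 were higher in the lyophilized sample in all 3 pairs and 0 were lower in all 3, against 33.4 and 28.8% of all genes. The median log2 difference of the members was 0.08 in pair 1, 0.24 in pair 2 and 0.17 in pair 3, and that of all genes 0.04, 0.003 and 0.03. In pairs 1 to 3, 70, 81 and 79 of 83 members were higher after lyophilization, against 6158, 5648 and 6062 of the 11134 genes tested. The lyophilized sample was the shallower one in pair 3 only, and the part of depth in these counts was not tested.

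None of these differences passed the test without the pairing. By limma on log2(FPKM + 0.1) with Benjamini-Hochberg adjustment, 0 of 83 members were past an adjusted p of 0.05, against 0.018% of all genes higher and 0.557% lower. At an unadjusted p below 0.05 there were 3 of 83, all higher, against 14.1% of all genes in either direction and 4.96% higher. Only 6 members, RPL6, RPL7, RPL22, RPL22L1, RPL36AL and RPS27L, had all 3 lyophilized values above all 3 control values, against 9.66% of all genes.

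With the pair as a block in the same model, which removes the offset of pair 1, 51 of 83 members were higher in the lyophilized samples and 0 lower, against 15.9% of all genes higher and 14.9% lower. Of these, 35 of 51 were large subunit and 16 of 32 small subunit genes. The count was 62 without pair 1, 47 without pair 2, where RPL21 was called lower, and 21 without pair 3, against 9.03, 27.7 and 4.26% of all genes. Each of these counts leaves out 1 of the 3 pairs, and with so few left the spread between pairs is poorly measured. Adding a correction for GC content left 44 higher and 0 lower, against 9% of all genes higher and 6.31% lower, and adding GC content and transcript length left 7 higher and 0 lower, against 3.72% of all genes higher and 3.44% lower. All calls in these 3 fits on all pairs were in the same direction, and their number depended on the correction.

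**Figure D2:**
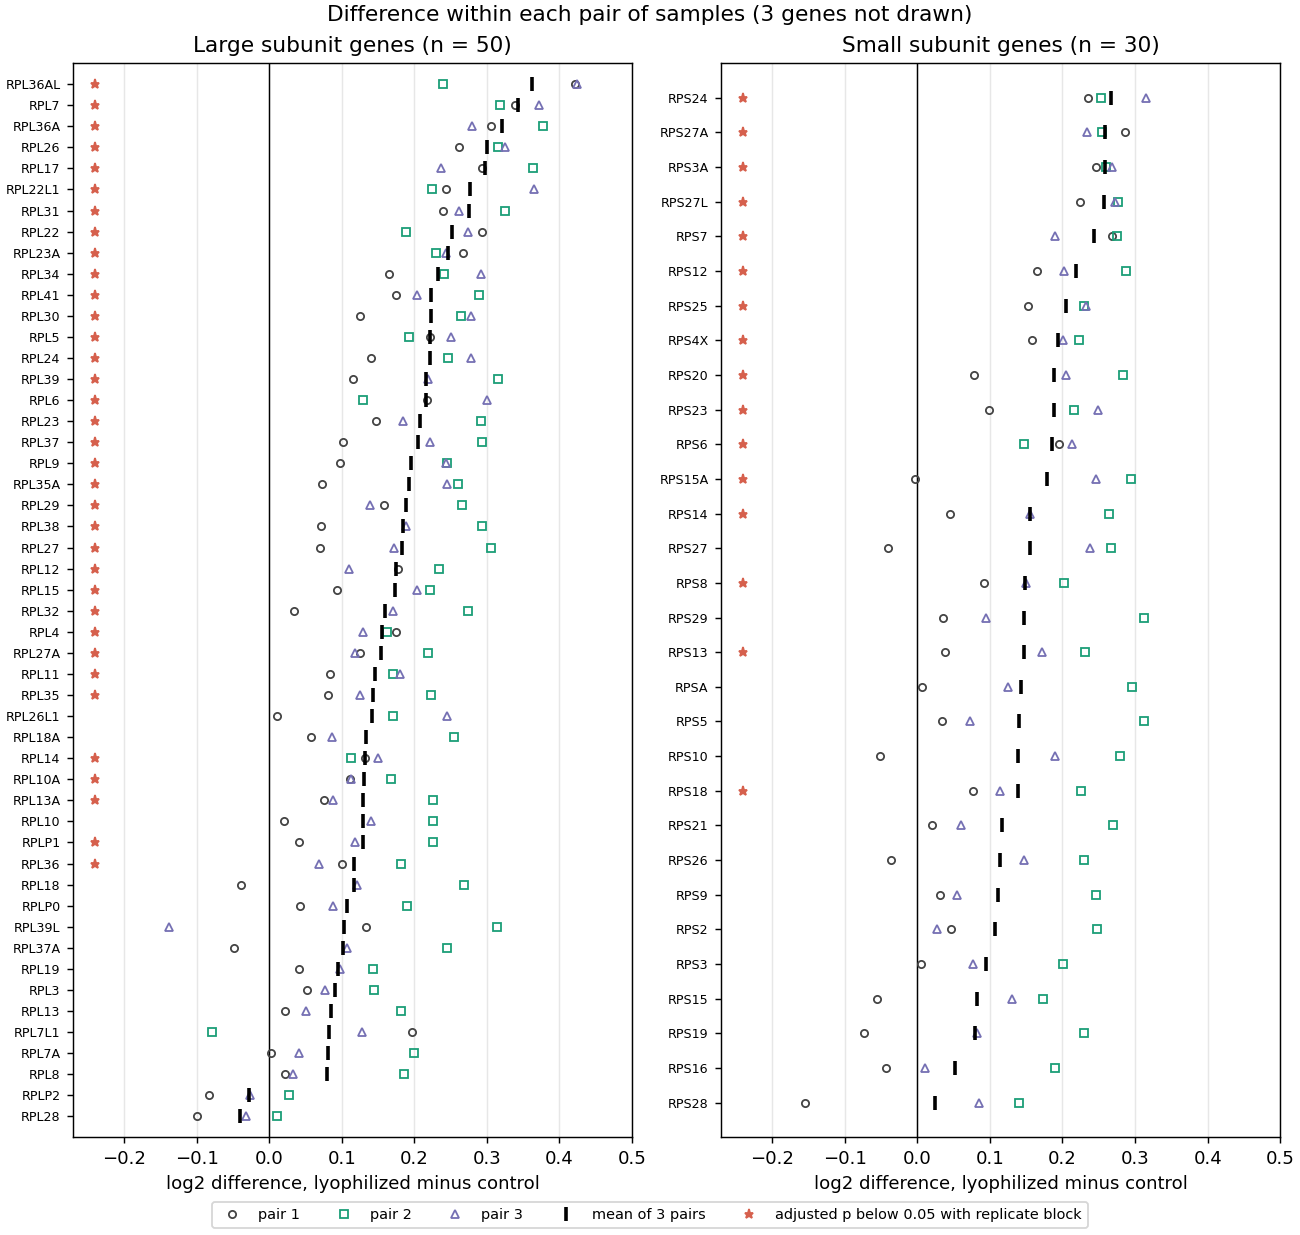
Log2 difference of lyophilized minus control within pairs 1 to 3 (open symbols) and their mean (black bar) for each member tested except 3, RPL21 among them, with a red star where the adjusted p was below 0.05 with the pair as a block. Nearly all means lie right of 0, with RPL28 and RPLP2 just left of it, and pair 1 often lies closest to 0.

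The stalk proteins come first among the members by role, since they recruit the elongation factors to the large subunit. RPLP1, which binds there as a dimer with RPLP2, had 4312, 3052 and 3179 FPKM in controls 1 to 3 and 4437, 3571 and 3451 FPKM in lyophilized samples 1 to 3. It was higher after lyophilization in all 3 pairs although the groups overlapped, with a log2 fold change of 0.13 ± 0.04 (SE) and an adjusted p of 0.044 with the block. RPLP2 had 3900.3, 3031 and 3025 FPKM in the controls and 3681, 3090.3 and 2969 FPKM after lyophilization. It was 1 of only 2 members with a negative log2 fold change, -0.03 ± 0.17, and its adjusted p was 0.959, or 0.591 with the block. RPLP0, the protein to which these dimers attach, had 2036, 1368 and 1476 FPKM against 2096, 1561 and 1569.6 FPKM, higher in all 3 pairs, with an adjusted p of 0.071 with the block. With the block and the GC correction RPLP0 and RPLP2 passed the test, at 0.22 ± 0.03 and 0.15 ± 0.04, and RPLP1 did not (adjusted p = 0.123). With GC and length no stalk gene did, and RPLP2 stood at -0.16 ± 0.04 (adjusted p = 0.057), so that its sign depended on the correction.

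RPL5 and RPL11 join the ribosome together with 5S RNA, and when ribosome assembly is disturbed the free complex holds back MDM2, the ubiquitin ligase of p53. RPL5 had 925, 733 and 726 FPKM in the controls and 1079, 838 and 864 FPKM in the lyophilized samples. RPL11, among the 3 most abundant genes of the large subunit, had 3846, 2899 and 2785 FPKM against 4077, 3263 and 3156 FPKM. Both were higher in all 3 pairs and both groups overlapped through control 1. Without the block neither passed the test (adjusted p = 0.545 and 0.748), and with it both did, at log2 fold changes of 0.22 ± 0.04 (adjusted p = 0.0035) and 0.15 ± 0.04 (adjusted p = 0.018). Both also passed after the GC correction and neither after the correction for GC and length.

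In the rest of the large subunit, RPL37A, a zinc-binding protein and the most abundant member, had 7308.5, 4759.8 and 4874 FPKM in the controls and 7069.7, 5640.4 and 5248 FPKM in the lyophilized samples. Pair 1 was slightly lower and pairs 2 and 3 were higher after lyophilization, and the adjusted p was 0.152 with the block. RPL7, the gene with the second largest log2 fold change after RPL36AL when RPL21 is set aside, had 464, 414 and 388 FPKM against 587, 516 and 502 FPKM. All lyophilized values were above all control values, and the log2 fold change of 0.34 ± 0.13 had an adjusted p of 0.293, or 7.0e-04 with the block. RPL7 was no longer called with the GC correction (0.12, adjusted p = 0.102) or with GC and length (0.13, adjusted p = 0.065). RPL28, the member with the lowest log2 fold change (-0.04 ± 0.23), had 1489.6, 926 and 996 FPKM against 1391, 933 and 974 FPKM, and its adjusted p was 0.447 with the block. After the correction for GC and length the sign of RPL28 turned and it was among the 7 genes called higher, at 0.20 ± 0.04.

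RPS6 and RPS16 were among the most abundant genes of the small subunit. RPS6, the ribosomal protein that S6 kinase phosphorylates downstream of mTOR, had 3257, 2633 and 2572 FPKM in the controls and 3729.5, 2915 and 2982 FPKM after lyophilization. It was higher in all 3 pairs, with 0.19 ± 0.04 and an adjusted p of 0.0058 with the block, a call lost with the GC correction (0.03, adjusted p = 0.707) and with GC and length (0.006, adjusted p = 0.947). RPS16 had 3006, 2050.4 and 2092 FPKM against 2918, 2338 and 2107 FPKM. In this gene pair 1 was slightly lower and pairs 2 and 3 were higher. The adjusted p was 0.411 with the block and 0.019 with the GC correction (0.17), and with GC and length the value was -0.02 (adjusted p = 0.735). RPSA, a small subunit protein also known as a receptor for laminin, had 1236, 834 and 911 FPKM against 1242, 1024 and 994 FPKM, with an adjusted p of 0.066 with the block, 0.044 with the GC correction and 0.199 with GC and length.

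RPS27A is made as a fusion with ubiquitin, while FAU encodes a small subunit protein fused to a ubiquitin-like one. RPS27A had 469, 397 and 365 FPKM in the controls and 572, 473 and 429.8 FPKM in the lyophilized samples. Its log2 fold change of 0.26 ± 0.04 had an adjusted p of 0.0023 with the block, and it was 0.07 in both corrected fits, with an adjusted p of 0.307 in each. FAU, which the naming rule does not take, had a log2 fold change of 0.09, with an adjusted p of 0.209 with the block, and 0.27 (adjusted p = 0.0044) with the GC correction, but -0.02 (adjusted p = 0.812) with GC and length.

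The values of the large and small subunits lay close together. The median log2 fold change was 0.17 over the 51 large and 0.15 over the 32 small subunit genes tested, and 44 of 51 and 22 of 32 were higher in all 3 pairs. The summed FPKM of the large subunit was 1.39, 1.44 and 1.43 times that of the small subunit in controls 1 to 3 and 1.40, 1.43 and 1.43 times in lyophilized samples 1 to 3. The difference of this ratio within pairs was -0.0003 ± 0.011 (SD, n = 3 pairs). The ratio in pair 1 was the lowest of its group on both sides.

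The paralogs ending in L or L1 are separate genes related in sequence to their main gene, several of them with a known preference for certain tissues. Identity of the coding sequences ran from 55.5% for RPL7L1 to 94.8% for RPL39L. Whether each protein can take the place of its main gene's product was not tested. As a group they were far less abundant than the main genes, with a median of 33.5 FPKM over 8 genes. RPL10L and RPL3L, known from testis and from heart and skeletal muscle, did not pass the filter: RPL10L was listed at 0 in all 6 samples, and RPL3L at 0 in 5 and at 0.033 FPKM in control 3.

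Of the other 6 pairs of genes, the main gene led in 5. RPL39 was 39.1 times, RPL26 53.6 times, RPL7 21.5 times, RPS27 10.7 times and RPL22 1.60 times as high as its paralog, as ratios of the means over 6 samples. The order was turned in 1 pair: RPL36A, a gene on the X chromosome, was 0.163 times as high as RPL36AL, whose coding sequence is 89.9% identical. RPL36A had 81.0, 58.2 and 62.2 FPKM in the controls and 100.1, 75.7 and 75.5 FPKM in the lyophilized samples, and RPL36AL had 416, 415 and 388 FPKM against 557, 489.6 and 520.1 FPKM. For RPL36A 47.3% and for RPL36AL 6.6% of the 75-base windows of the transcript had an exact copy elsewhere, and the part of this in the difference was not tested.

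RPL36AL had the largest log2 fold change of the 83 members apart from RPL21, 0.36 ± 0.11, with an adjusted p of 0.225, or 0.0013 with the block. RPS27L, a target of p53, had 90.1, 82.4 and 79.5 FPKM against 105, 99.9 and 96.1 FPKM, with 0.26 ± 0.05 and an adjusted p of 0.0048 with the block. RPL22L1, which RPL22 represses in other cells, had 88.1, 103 and 83.4 FPKM against 104, 120.3 and 107 FPKM, and RPL22 had 160.5, 144 and 139.7 FPKM against 197, 164 and 169 FPKM. The lyophilized values of these 4 genes lay above their control values without overlap. With the GC correction RPL36AL stayed called, at 0.18 (adjusted p = 0.014), while RPS27L, at 0.08 (adjusted p = 0.360), RPL22 and RPL22L1 were not, and with GC and length none of the 4 passed the test. RPL39L, RPL26L1 and RPL7L1 overlapped between the groups and did not pass either test, the adjusted p with the block being 0.351, 0.116 and 0.40.

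No difference in the log2 ratio of a paralog to its main gene passed a test between lyophilized and control samples. The largest differences were -0.26 ± 0.13 (SD, n = 3 pairs) for RPL7L1 to RPL7 and -0.16 ± 0.09 for RPL26L1 to RPL26, each lower after lyophilization in all 3 pairs. The ratio of RPS27L to RPS27 was higher in all 3 pairs, by 0.10 ± 0.14. In the two-sided exact permutation test of 3 against 3 samples no p was below 0.5, and all 6 were 0.9 after adjustment, where the smallest p the design allows is 0.1. In the exact sign-flip test over pairs the smallest p was 0.25, which is also the smallest that 3 pairs allow.

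The paralogs differed from the main genes in how the pairs were ordered. Of the main genes 75 of 77 were highest in control 1 among the controls and 75 of 77 in lyophilized sample 1 among the lyophilized samples. In both groups 2 of the 6 paralogs were, RPL36AL and RPS27L, beside 29.3 and 29.1% of all genes. The main genes, rather than the paralogs, thus lay far from the share over all genes. RPL7L1 had 16.5, 26.3 and 22.5 FPKM in controls 1 to 3 and 18.9, 24.9 and 24.5 FPKM in lyophilized samples 1 to 3, with both samples of pair 1 lowest. RPL26L1 had 29.0, 37.1 and 28.5 FPKM against 29.2, 41.7 and 33.8 FPKM, and RPL39L 31.0, 31.2 and 35.6 FPKM against 34.0, 38.8 and 32.3 FPKM. These main genes were themselves highest in pair 1 of both groups. The ratio of the main gene to its paralog was also highest in pair 1 for all 6 pairs of genes, in the controls and again in the lyophilized samples. This was noticed after the values were seen and rests on 1 pair of samples, so no test was made.

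**Figure D3:**
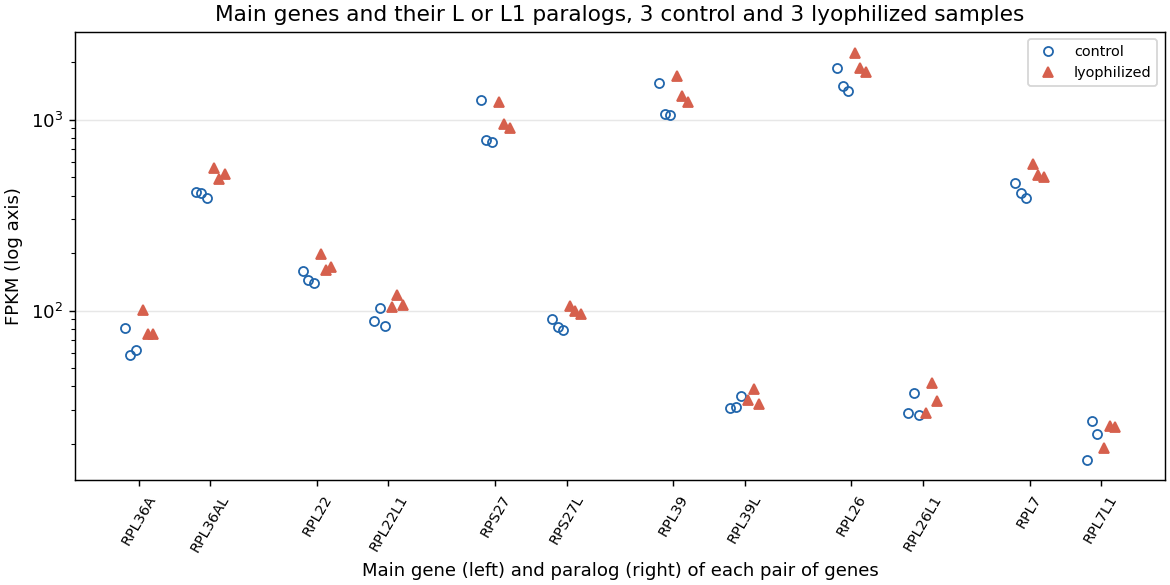
FPKM (log axis) of the 6 main genes (left of each pair) and their paralogs (right) in the 3 control samples (open circles) and the 3 lyophilized samples (filled triangles), each in the order of pairs 1 to 3. Main genes lie 1.60 to 53.6 times above their paralogs, except RPL36A, which lies below RPL36AL.

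Reads that fit several places limit the level of some members more than that of others. By the study's methods reads with more than 1 best position were not kept, so each transcript was cut into overlapping windows of 75 bases, the length of a read, and those with an exact copy in GRCh37 outside the gene were counted. The 10 main genes with no copied window had a median of 2491 FPKM, the 23 with up to 10% copied 1643 FPKM, the 27 with 10 to 50% copied 1165 FPKM and the 17 with more 990.3 FPKM. Across 76 main genes without RPL21, Spearman's rho between copied share and level was -0.46, a description over genes that share libraries and repeated sequence. The shares are over MANE Select transcripts, which for some members, RPL37A and RPL37 among them, are longer than the whole record behind the level. The part of this in the shares was not tested. RPS26, at 35.5%, and RPL36A, at 47.3%, had the lowest levels of the main genes next to RPL21.

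RPL21 had copies of all its windows, at 31 other places, and its values of 19.9, 0.0013 and 35.8 FPKM in controls 1 to 3 and 20.8, 42.9 and 12.9 FPKM in lyophilized samples 1 to 3 had no common order. Its fitted log2 fold change of 2.44 ± 1.97 rests on the near-zero value of control 2 and turned to -0.24 without that sample. The tables list a second record, RPL21P28, over the same stretch of chromosome 13 (27825693 to 27830699 against 27825692 to 27830702), with 212, 198 and 149 FPKM against 252, 174 and 209 FPKM. Summed, the 2 records had 232, 198 and 184 FPKM against 273, 217 and 222 FPKM, higher after lyophilization in all 3 pairs by 0.23, 0.13 and 0.27 on the log2 scale.

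The tables also list pseudogenes of members, and where their reads came from was not tested. Of 28 records named as pseudogenes of members, 16 had a mean above 1 FPKM, the highest being RPSAP58 with 887 FPKM beside 1040.3 FPKM for RPSA itself, RPL23P8 with 431 FPKM and RPL13AP20 with 264 FPKM. RPSAP58 had 1026, 712 and 798 FPKM in the controls and 1054, 873 and 858 FPKM in the lyophilized samples, with the same order of samples as RPSA. In addition, 27 members held 54 records of small nucleolar RNAs within their bounds, 19 of them large and 8 small subunit genes.

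**Figure D4:**
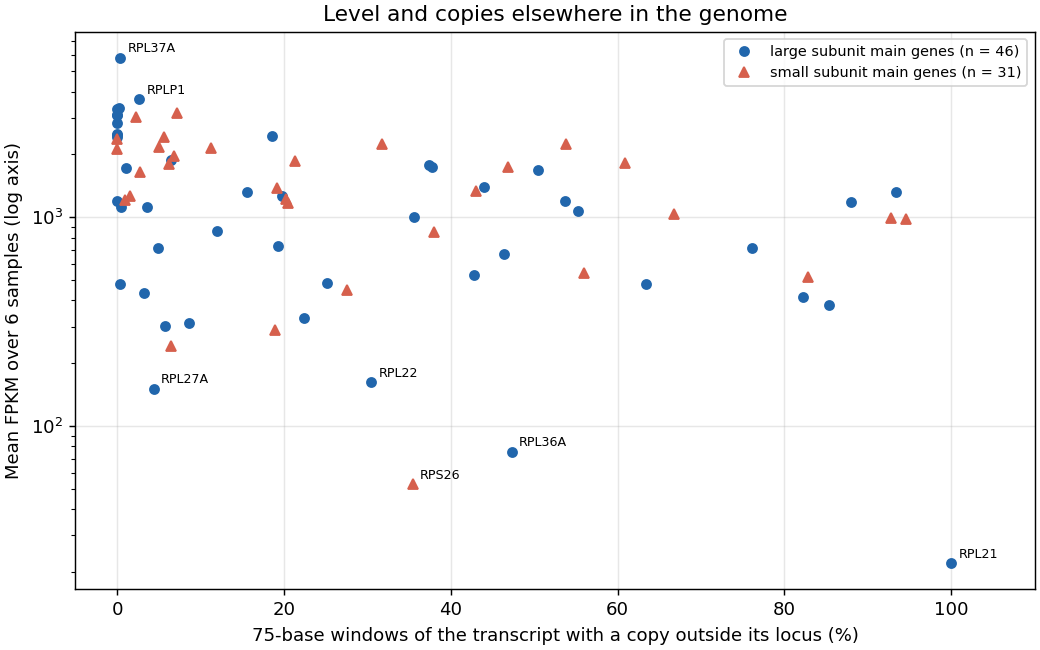
Mean FPKM over the 6 samples (log axis) of the 77 main genes against the share of 75-base windows of the MANE Select transcript that have an exact copy outside the gene. Levels under 100 FPKM occurred at 35.5% copied windows (RPS26), 47.3% (RPL36A) and 100% (RPL21), while genes with over 90% copied windows also reached the level of RPL39, 1322 FPKM.

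Base composition moved with the size of the difference. Over 82 members without RPL21, Spearman's rho between the GC content of the transcript and the log2 fold change was -0.73, and it was -0.61, -0.24 and -0.78 in pairs 1 to 3. Over the 10642 genes tested that were matched to a transcript it was -0.77, so the relation is not particular to the members. The 28 members with the lowest GC content (39.9 to 45.2%) had a median log2 fold change of 0.22, against 0.18 for all genes of that range, and 25 were called higher with the block, against 25.7% of all genes of that range. The 27 members between had 0.16 against 0.03, with 20 called higher, against 6.17%. The 27 with the highest (51.5 to 63.6%) had 0.11 against -0.14, with 6 called higher, against 1.92%. The members thus lay above the median of all genes of like GC content in each of these groups, by the widest margin where GC content was high.

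**Figure D5:**
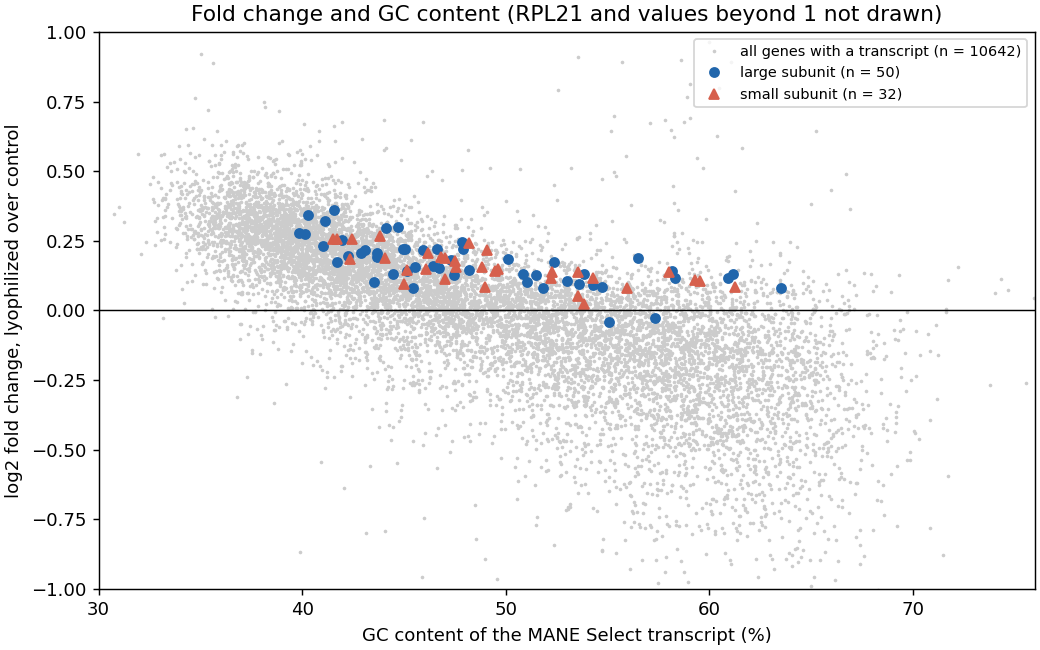
Log2 fold change of lyophilized over control samples against the GC content (%) of the transcript for large (blue circles, n = 50) and small (red triangles, n = 32) subunit genes, over all genes tested with a transcript (grey, n = 10642). Both fall from left to right, and at high GC content the members stay near 0.1 while the median of all genes lies at -0.14.

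Members were also shorter than other genes, with a median transcript of 785 bases against 3159 bases for all genes tested. Among the members, most of them short, transcript length and log2 fold change were almost unrelated (rho = -0.07). Adding length to the GC correction nevertheless took the members called higher from 44 to 7. Their median log2 fold change went from 0.16 to 0.08, and that of all genes was 0.03 in both fits. The lengths are those of the MANE Select transcripts and for some members differ from the ones behind the FPKM values. That of RPL37A, 2992 bases, is longer than its whole record (217363520 to 217366188 on chromosome 2). So is that of RPL37, 7573 bases (40831430 to 40835387 on chromosome 5). The GC content and length in the corrected fits come from these transcripts, and the part of this in the calls was not tested.

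The same comparison in other genes of translation gave a mixed picture. No gene of these lists passed the test without the block, and the values that follow are from the fit with it, in which 15.9% of all genes were higher and 14.9% lower. Of 8 elongation factors 3 were higher and 0 lower. EEF1A1, which brings aminoacyl-tRNA to the ribosome, had a log2 fold change of 0.19 (adjusted p = 0.0050), EEF1G, part of its exchange factor, 0.08 (adjusted p = 0.182), and EEF2, the translocase, -0.08 (adjusted p = 0.141). With GC and length EEF2 was called in the other direction, at 0.22 (adjusted p = 0.031). Of 21 other genes with a known TOP start, a list that shares genes with the elongation factors, 11 were higher and 2, EIF3F and PABPC1, were lower, both in all 3 pairs. TPT1, the most abundant of them, had 4061.5, 2921 and 3024 FPKM against 4641, 3364 and 3416 FPKM, at 0.19 (adjusted p = 0.0045). GNB2L1, the gene of the small subunit scaffold RACK1, had 0.01 (adjusted p = 0.870), and 0.13 (adjusted p = 0.042) with the GC correction.

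Of 12 factors that bind nascent chains or ribosomes 9 were higher and 0 lower, among them NACA, at 0.31 (adjusted p = 0.0033), BTF3, its partner, at 0.19 (adjusted p = 0.017), and SRP14 of the signal recognition particle, at 0.17 (adjusted p = 0.018). Of these 12, 4 were higher with the GC correction and 1 with GC and length, against 9 and 3.72% of all genes. Of 9 chaperones and carriers of single ribosomal proteins 3 were higher and 1 lower: NAP1L1 and BCCIP rose by 0.22 and 0.33, and AAMP fell by 0.19. Of 18 members mutated in Diamond-Blackfan anemia, an inherited failure of red cell production, 11 were higher and 0 lower, beside 51 of all 83 members. In the corrected fits 9 and 1 were higher, beside 44 and 7 of all 83 members and 9 and 3.72% of all genes. NACA, EIF3F and PABPC1 stayed called in both corrected fits, BTF3 with GC alone, whereas EEF1A1, TPT1, SRP14, NAP1L1, BCCIP and AAMP were called in neither.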

How the data were processed

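Per the labels and the study's methods, the authors aligned reads to GRCh37/hg19 with TopHat2 2.0.7, kept reads with 1 best position, marked duplicates with Picard and deposited 1 table of FPKM per sample from Cufflinks; base calling used CASAVA 1.4. The annotation and the Cufflinks version are not given in the sources used here. FPKM scales with depth and length, and dropped multi-mapping reads lower genes with copies.

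Of the 24934 records, the one with the highest mean FPKM was kept per symbol. Small RNAs and genes with a mean of 1 FPKM or less in both groups were removed (11134 left), and log2(FPKM + 0.1) was compared with limma 3.58.1 (R 4.3.3), with a mean-variance trend, condition as the only term and Benjamini-Hochberg adjustment over all genes. The scripts were tested on simulated data. Pairs come from the labels, and deviations of same-numbered samples correlated at 0.72, 0.60 and 0.48, so the fit with pair as a block is given beside the fit without it; corrected fits also remove a loess trend on GC content, or GC content and length, from each sample. Every fold change refers to log2(FPKM + 0.1), which understates changes of low genes. The study describes pairs of cell batches without saying whether each was a separate culture, so p-values measure the spread between these samples, which may be technical.

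Members and gene lists were chosen with earlier results of these data known. Named were the 3 most abundant genes per subunit, the 4 members with the largest positive and the up to 4 with negative log2 fold change, paralogs and their main genes, the stalk, RPSA, RPL5, RPL11, RPS27A and FAU, and up to 3 abundant genes per list; other genes named with values (EIF3F, PABPC1, RPS26, the pseudogenes and the members without overlap between groups) were chosen after their values were seen. Some genes that this rule takes are counted in the totals but not reported here. Alternatives were other scalings, pseudocounts, filters, records, corrections and left-out samples or pairs. Sequences are from GRCh37 and GENCODE v44 lifted to that build.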

Additional observations from a re-analysis of the deposited data

How the results depend on the processing

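Without the replicate block the count of members past the threshold was 0 under every other scaling, pseudocount, filter and choice of records tried, and with each sample or pair left out, and so was that of the other translation genes, for which no other choice of records was tried. The block gave 51 members (44 with the GC correction, 7 with GC and length) and 24 other translation genes (18 and 9). Alternatives added after seeing the data were the block without pair 1, 2 or 3, and the sum of RPL21 and RPL21P28, with 52 members. Without pair 1, 2 or 3 the block gave 62, 48 (RPL21 the only one lower) and 21 members. It gave 13, 26 (3 of them lower) and 10 of the other genes, where 9.03, 27.7 and 4.26% of all genes were higher. Block fits with a pair left out measure the spread between pairs poorly. With a sample or pair left out, the median log2 fold change ranged from 0.064 to 0.32 in the large and 0.041 to 0.31 in the small subunit, their difference from 0.0053 to 0.042, and the members' share of FPKM, lyophilized minus control, from -0.317 points without lyophilized sample 1 to 2.98 without control 1. Within pairs it was higher after lyophilization in 3 of 3. Over the same omissions the log2 ratio to the main gene ranged from -0.084 to 0.15 for RPL36AL, -0.087 to 0.15 for RPL22L1, -0.084 to 0.21 for RPS27L, -0.33 to 0.045 for RPL39L and -0.33 to 0.063 for RPL26L1, changing sign, and from -0.52 to -0.065 for RPL7L1.

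Log2 fold changes that changed sign, the cause not tested, were those of RPL37A (-0.022 with GC and -0.024 with GC and length), RPL28 (0.11 and 0.20), EEF2 (0.15 and 0.22), NAP1L1 (-0.070 and -0.072), RPLP2 (0.15 with GC), and, with GC and length, RPS16 (-0.025) and FAU (-0.019), all with the replicate block, and GNB2L1 with upper quartile scaling (-0.0019). Ranges over omissions that crossed 0 were -0.062 to 0.26 for EEF1G, -0.28 to 0.10 for EEF2, -0.0057 to 0.25 for FAU, -0.15 to 0.19 for GNB2L1, -0.0049 to 0.32 for RPL10, -0.70 to 4.40 for RPL21, -0.22 to 0.17 for RPL28, -0.077 to 0.28 for RPL3, -0.025 to 0.30 for RPL37A, -0.0024 to 0.22 for RPL39L, -0.10 to 0.23 for RPL7L1, -0.033 to 0.28 for RPLP0, -0.12 to 0.094 for RPLP2 and -0.079 to 0.23 for RPS16.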
